A study of Homo sapiens with 8 samples.

Results

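RN7SK, RN7SL1, RN7SL2, RMRP, RPPH1 and TERC are 6 abundant, highly folded noncoding RNAs, each of which works as the RNA part of a ribonucleoprotein (RNP). They were chosen by name, as 6 of the 62635 genes in the short-read table with the ERCC standards set aside, and looked up in the long-read table of 301771 transcripts as well. HAP1 is a near-haploid human cell line that descends from a chronic myeloid leukemia. Its nuclei were extracted in a buffer of urea (0.5 M) and the detergent NP-40 (0.5%) and spun down, so that the pellet is called the chromatin fraction and the liquid above it the nucleoplasm fraction, and the labels give no other treatment or genetic change for either. The study took 3 cultures through this extraction and sequenced 3 chromatin and 3 nucleoplasm libraries as 50-base directional short reads, after rRNA had been depleted and starting from 100 ng of the depleted RNA. Chromatin RNA was also given a poly(A) tail by enzyme and read as direct cDNA on a nanopore instrument in 2 long-read libraries, with no long-read library of nucleoplasm.

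RNA polymerase III (Pol III) makes most of these RNAs, from short genes whose ends carry a run of T. RN7SK is the scaffold of the 7SK snRNP, which holds the transcription elongation factor P-TEFb in an inactive form. RN7SL1 and RN7SL2 encode 7SL, the RNA of the signal recognition particle (SRP), which is put together partly in the nucleolus and works in the cytoplasm, where it brings ribosomes to the endoplasmic reticulum. RMRP is the RNA of RNase MRP, which cuts precursor rRNA in the nucleolus, and RPPH1 is the catalytic RNA of RNase P, which trims the 5′ end of precursor tRNA. TERC, the template RNA of telomerase, is the exception in its synthesis, since it comes from RNA polymerase II and is matured with H/ACA proteins in Cajal bodies. Read counts of a fraction are shares of that fraction's RNA, and in such bulk samples fewer cells that hold an RNA and less of that RNA per cell cannot be told apart.

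Of the 6 RNAs, 4 had a short-read locus of their own. The locus at chr6:52995620-52995950 matched RN7SK (plus strand, gene at chr6:52995621-52995948) with a Jaccard index of 0.991, where 1 is a full match of the spans, and it also holds a second GENCODE entry for the same RNA, named 7SK. RN7SL1 (chr14:49586580-49586878, plus strand) and TERC (chr3:169764520-169765060, minus strand) matched their loci with an index of 1, and RMRP (chr9:35657754-35658017, minus strand) with 0.985. RN7SL2 (chr14:49862550-49862849, minus strand) lay inside a merged locus of 10711 bases, with an index of 0.0280, that also covers RN7SL3 and the lncRNA ENSG00000282885. RPPH1 (chr14:20343075-20343407, minus strand) lay inside a merged locus of 759 bases, with an index of 0.439, that also covers the lncRNA ENSG00000259001. Both merged loci missed the minimum index of 0.5, so they are called the RN7SL2 locus and the RPPH1 locus, and their values belong to everything in them. Coordinates are hg38 with GENCODE release 44, and each of the 6 is annotated as a noncoding gene of 1 exon.

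As the reads were 50 bases long, every 50-base word of each RNA was looked up on both strands of the hg38 chromosomes. Spans were those of RefSeq. In RN7SL1, 39 of 250 words (15.6%) occurred once in the genome, and in RN7SL2, 32 of 250 words (12.8%) did, while 63.2% of the words of each were also in the other. RN7SK had 67 of 283 words (23.7%) that occurred once and at most 5 copies of any word. All words of RMRP, RPPH1 and TERC occurred once. Values of RN7SK, RN7SL1 and the RN7SL2 locus are therefore uncertain as levels of 1 gene each, since reads from several genes could be placed on them, and values of the other 3 do not share this limit.

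The 3′ ends of RN7SK, RMRP and RPPH1, made by Pol III, are shown beside that of TERC, since they differ in the run of T at which Pol III stops. Each line holds the last 15 bases of the RNA and the next 15 bases of hg38, in the direction of transcription, with the first run of 4 or more T in capitals:

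RN7SK (chr6:52995937-52995966, plus strand): gtctgcctttcTTTTgacccattacccatc

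RMRP (chr9:35657735-35657764, minus strand): ctcagcgcggctgTTTTTTgttcccgagac

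RPPH1 (chr14:20343056-20343085, minus strand): tctcctccgcccaTTTTTggaaaaaaaaaa

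TERC (chr3:169764595-169764624, minus strand): tcggctcacacatgcagttcgctttcctgt

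RN7SK, RMRP and RPPH1 carry a run of 4 to 6 T that begins 1 to 3 bases before their last base, and TERC has none in this window. The letters TTTT, searched on the transcribed strand, were present in 23.4% of the windows of this length around the annotated ends of 62692 GENCODE genes.

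Short-read depth was 38816272 to 43714811 gene reads in chromatin and 75680880 to 79477655 in nucleoplasm. The table lists gene counts divided by a size factor per library, called normalized counts here, from which whole reads could be recovered. Fraction labels were checked with 4 genes. MALAT1 and NEAT1, which are retained at chromatin, were higher in the chromatin libraries by 3.09 and 2.40 on the log2 scale, and the mRNAs GAPDH and B2M were lower by 2.35 and 2.11. One label field names chromatin for all 8 libraries, so fractions were taken from the titles, with which these genes went. HAP1 kept only some blood markers. Of 7 haematopoietic markers, 6 were found and 2, TAL1 and KIT, were tested. GATA1 and PTPRC were listed at 0 in every library. CD33 averaged 3.04 and CD34 1.57 normalized counts in chromatin, and 3.45 and 0.293 in nucleoplasm. The summed level of the haematopoietic markers, nearly all of it TAL1 and KIT, was 4010 to 4833 normalized counts. It was 1062 to 3163 for 4 epithelial, 471 to 894 for 4 fibroblast and 0 to 6.14 for 3 hepatocyte markers.

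Together the loci of the 6 RNAs took 3.86%, 3.25% and 3.58% of gene reads in the chromatin libraries and 10.97%, 11.95% and 12.06% in the nucleoplasm libraries. This includes reads of RN7SL3 and of the lncRNAs ENSG00000282885 and ENSG00000259001 in the merged loci. The fractions did not overlap. The mean was 3.56% ± 0.303 (SD, n = 3) in chromatin and 11.7% ± 0.601 (SD, n = 3) in nucleoplasm, a difference of 8.10 percentage points, with p = 0.1 in an exact two-sided permutation test over libraries, the smallest p that 3 against 3 libraries can give. The make-up of this share differed between fractions. RN7SL1 and the RN7SL2 locus held 0.464% ± 0.0553 of gene reads in chromatin and 10.03% ± 0.536 in nucleoplasm (SD, n = 3 per fraction), whereas RN7SK, RMRP and TERC together held 2.91% ± 0.255 and 1.29% ± 0.0450. Counting error is small against this spread, because the 95% Wilson interval of a share in 1 library reached at most 2.24% of the share for TERC and at most 0.806% of it for the others. These intervals cover counting error only.

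**Figure D1:**
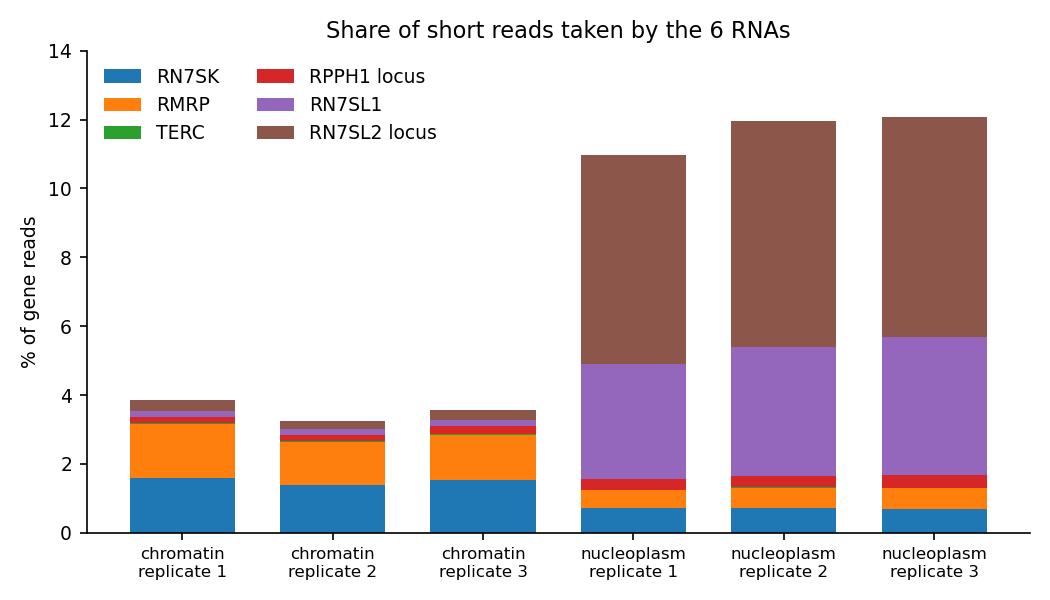
Share of gene reads (in %, linear axis from 0) taken by the locus of each of the 6 RNAs in each short-read library, stacked. The 3 chromatin bars end between 3.25% and 3.86% and are mostly RN7SK and RMRP, and the 3 nucleoplasm bars end between 10.97% and 12.06% and are mostly the RN7SL2 locus and RN7SL1.

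All 6 passed the filter on low values (10 or more normalized counts in 3 or more libraries), which left 26489 genes for the test, and no RNA of the 6 overlapped between fractions. That was also true of 90.5% of the tested genes. At an adjusted p under 0.05 (limma, Benjamini-Hochberg over all tested genes), 3 of the 6 were higher in chromatin, against 44.2% of tested genes, and 3 were higher in nucleoplasm, against 45.0%. With a change of more than 4-fold required as well, none of the 6 was called in chromatin, against 21.4% of tested genes, and RN7SL1 and the RN7SL2 locus were called in nucleoplasm, against 8.60%.

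**Figure D2:**
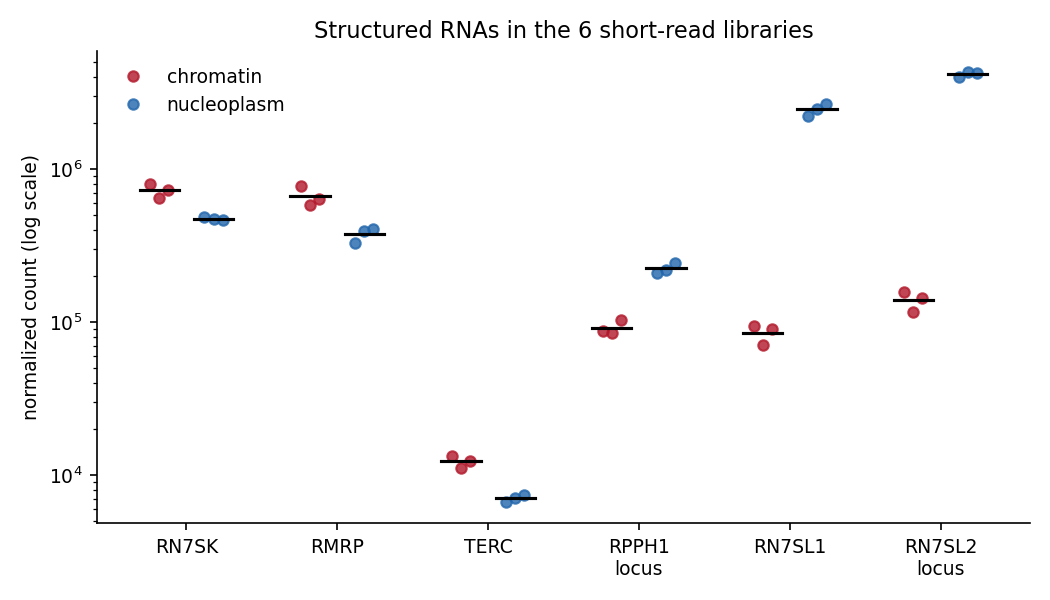
Normalized counts (log scale) of the 6 RNAs in the 3 chromatin and 3 nucleoplasm libraries; each point is a library and each bar a mean. RN7SK, RMRP and TERC sit higher in chromatin, the RPPH1 locus, RN7SL1 and the RN7SL2 locus sit higher in nucleoplasm, and the points of the fractions do not overlap for any of them.

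RN7SK had 800477, 650993 and 734557 normalized counts in chromatin and 486508, 469213 and 468515 in nucleoplasm. Every chromatin library was above every nucleoplasm library. It took 1.51% ± 0.105 of gene reads in chromatin and 0.714% ± 0.0174 in nucleoplasm (SD, n = 3 per fraction), which gave it rank 3 by normalized count in chromatin and rank 7 in nucleoplasm. Its log2 fold change of chromatin over nucleoplasm was 0.61 (SE 0.10, adjusted p = 4.15e-04, limma) under the authors' size factors, but it was -0.71 when the libraries were scaled to the same ERCC total. The 282 loci that GENCODE names RN7SKP, of which 121 had reads, lay on the same side as RN7SK under the authors' size factors, with sums of 375390 ± 35038 normalized counts for chromatin and 219676 ± 4270 for nucleoplasm (SD, n = 3 per fraction). They took 33.7% to 34.4% of the reads of the whole RN7SK family in chromatin and 31.3% to 32.2% in nucleoplasm. A fit of the family sum gave a log2 fold change of 0.66. As 76.3% of the 50-base words of RN7SK occurred more than once in the genome, the RN7SKP loci could hold RN7SK reads and are not independent of it.

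RN7SL1 had 94570, 70918 and 89893 normalized counts in chromatin and 2224089, 2470704 and 2686388 in nucleoplasm. The lowest nucleoplasm library was far above the highest chromatin library. RN7SL1 took 0.176% ± 0.0209 of gene reads in chromatin and 3.70% ± 0.329 in nucleoplasm (SD, n = 3 per fraction). Its mean normalized count was 28.9-fold higher in nucleoplasm, and its log2 fold change was -4.86 (SE 0.13, adjusted p = 1.65e-08, limma).

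The RN7SL2 locus had 157542, 116137 and 143739 normalized counts in chromatin and 4028822, 4304905 and 4285127 in nucleoplasm. Again no library of 1 fraction came near those of the other. The locus took 0.288% ± 0.0346 of gene reads in chromatin and 6.33% ± 0.242 in nucleoplasm (SD, n = 3 per fraction), a 30.2-fold difference in mean normalized count, with a log2 fold change of -4.93 (SE 0.13, adjusted p = 1.56e-08, limma). By normalized count the RN7SL2 locus and RN7SL1 had ranks 1 and 2 of all genes in nucleoplasm and ranks 14 and 23 in chromatin. From the lowest log2 fold change of all tested genes, the RN7SL2 locus ranked 16 and RN7SL1 ranked 21.

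The other loci named RN7SL, 634 in number and 390 with reads, summed to 86023 ± 11279 normalized counts for chromatin and 1454889 ± 156677 for nucleoplasm (SD, n = 3 per fraction), which is -4.08 as a log2 difference. They took 27.0% to 28.5% of the family's reads in chromatin and 17.2% to 18.8% in nucleoplasm. Since reads of these RNAs could be placed on several loci, the family was also fitted as a sum, which gave a log2 fold change of -4.72, and the sum of RN7SL1 and the RN7SL2 locus gave -4.90.

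RMRP had 773210, 582741 and 633696 normalized counts in chromatin and 329931, 392395 and 406492 in nucleoplasm. Chromatin replicate 1 was the highest, and all 3 chromatin libraries were above the nucleoplasm libraries. RMRP took 1.37% ± 0.156 of gene reads in chromatin and 0.566% ± 0.0603 in nucleoplasm (SD, n = 3 per fraction). Its log2 fold change was 0.81 (SE 0.13, adjusted p = 4.01e-04, limma) under the authors' size factors and -0.51 under the same ERCC total.

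The RPPH1 locus had 87952, 84396 and 103772 normalized counts in chromatin and 210102, 219616 and 245299 in nucleoplasm. All nucleoplasm libraries were higher, by 2.44-fold in the mean normalized count. Its share was 0.191% ± 0.0219 of gene reads in chromatin and 0.338% ± 0.0248 in nucleoplasm (SD, n = 3 per fraction), and its log2 fold change was -1.29 (SE 0.10, adjusted p = 2.89e-06, limma), which passed the test but not the 4-fold minimum. RMRP and RPPH1, the RNAs of a pair of related enzymes that share most of their proteins, thus differed in direction under the authors' size factors. Within a library, where no scaling enters, RMRP had 8.79, 6.90 and 6.11 times the reads of the RPPH1 locus in chromatin and 1.57, 1.79 and 1.66 times in nucleoplasm. The log2 ratio was 2.84 ± 0.27 in chromatin and 0.74 ± 0.09 in nucleoplasm (SD, n = 3 per fraction, exact two-sided permutation p = 0.1, the smallest possible, and 0.125 after Benjamini-Hochberg adjustment over the 15 pairs of the 6 RNAs).

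TERC had 13362, 11188 and 12299 normalized counts in chromatin and 6695, 7053 and 7426 in nucleoplasm, with all chromatin libraries higher. It took 0.0255% ± 0.00138 of gene reads in chromatin and 0.0106% ± 0.000497 in nucleoplasm (SD, n = 3 per fraction), which made it the rarest of the 6, at rank 520 in chromatin and 1795 in nucleoplasm. Its log2 fold change was 0.80 (SE 0.07, adjusted p = 9.05e-06, limma) under the authors' size factors and -0.53 under the same ERCC total.

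Scaling sets the sign for 3 of the 6. ERCC standards, 92 synthetic RNAs, were added in equal volume to each fraction, and 78755 to 104881 of their reads were found in chromatin libraries and 43455 to 56721 in nucleoplasm libraries. The median log2 fold change of all tested genes was -0.01 under the authors' size factors, 0.45 when all libraries were scaled to the same total of gene reads, and -1.32 under the same ERCC total. Each scaling multiplies a whole library by 1 factor, so the distance of an RNA from this median is nearly fixed by construction and is given only as a position among the genes. RN7SK lay 0.61 to 0.63 above the median under the 3 scalings, RMRP 0.81 to 0.83 and TERC 0.79 to 0.81, whereas the RPPH1 locus lay between -1.30 and -1.27, RN7SL1 between -4.86 and -4.84 and the RN7SL2 locus between -4.93 and -4.91. Read against 0 rather than this median, the RPPH1 locus, RN7SL1 and the RN7SL2 locus were lower in chromatin under all 3 scalings. Their log2 fold changes were -0.83, -4.40 and -4.46 under the same total and -2.62, -6.18 and -6.25 under the same ERCC total. RN7SK, RMRP and TERC were higher in chromatin under the same total as well, by 1.08, 1.28 and 1.26, and lower under the same ERCC total.

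**Figure D3:**
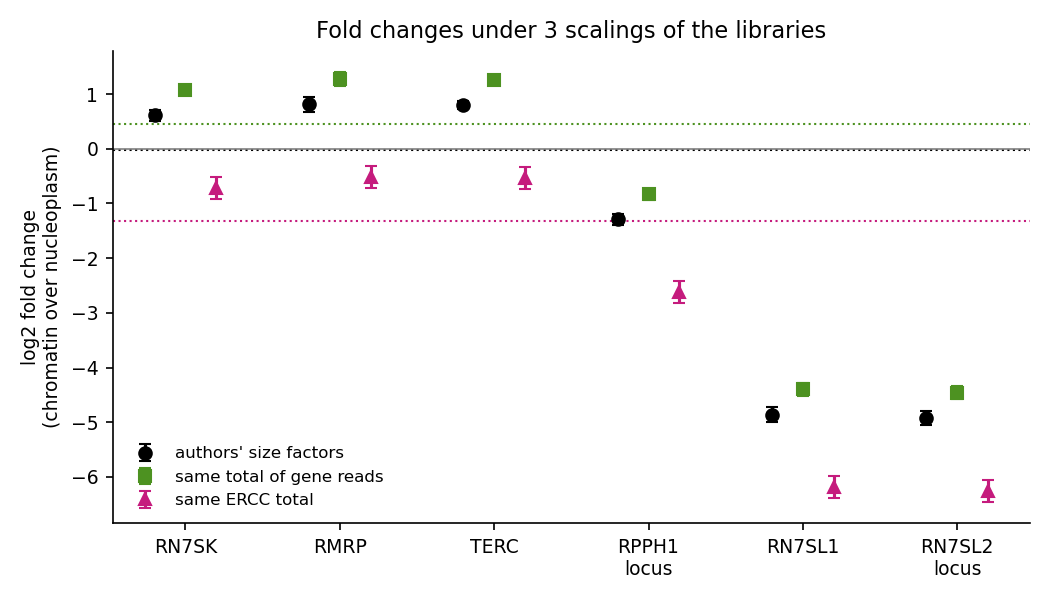
Log2 fold change of chromatin over nucleoplasm (points, with the SE as bars) for the 6 RNAs under 3 scalings of the libraries, with a dotted line at the median of all tested genes under each scaling. RN7SK, RMRP and TERC lie above 0 under the authors' size factors and the same total and below 0 under the same ERCC total, and the other 3 lie below 0 under every scaling drawn.

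Ratios within a library need no scaling. Over the RPPH1 locus, the log2 ratio in chromatin minus that in nucleoplasm was 1.91 for RN7SK and 2.11 for RMRP, and -3.57 for RN7SL1 and -3.64 for the RN7SL2 locus. The RPPH1 locus over TERC gave -2.09, so the RPPH1 locus lay between the other RNAs. RN7SK had 8.46, 9.18 and 8.17 times the reads of RN7SL1 in chromatin, but 0.219, 0.190 and 0.174 times in nucleoplasm, so that the log2 ratio went from 3.10 ± 0.09 to -2.37 ± 0.17 (SD, n = 3 per fraction). RN7SL1 kept close to the RN7SL2 locus, with log2 ratios of -0.71 ± 0.03 in chromatin and -0.78 ± 0.09 in nucleoplasm (exact permutation p = 0.4). As 63.2% of the words of RN7SL1 and of RN7SL2 are in the other, this ratio depends on how shared reads were placed. RMRP over TERC was 5.75 ± 0.09 and 5.73 ± 0.09 (exact permutation p = 1), and RN7SK over RMRP was 0.14 ± 0.08 and 0.34 ± 0.19 (exact permutation p = 0.2). In the other pairs, among them RN7SK over RN7SL1 and RN7SK over TERC (5.89 ± 0.02 and 6.07 ± 0.10), the fractions did not overlap (exact permutation p = 0.1 each, 0.125 adjusted). With 3 libraries a fraction, a p of this size does not show that ratios are equal.

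Per length, as RPKM over gene reads and the RefSeq length of the RNA, RMRP (50845 ± 5764) and RN7SK (45479 ± 3149) were the highest of the 6 in chromatin, and their libraries overlapped. The RN7SL2 locus followed with 9633 ± 1157, then RN7SL1 with 5895 ± 700 and the RPPH1 locus with 5605 ± 642, which overlapped each other, and TERC with 565 ± 30.7. In nucleoplasm the order was the RN7SL2 locus (211703 ± 8100), RN7SL1 (123792 ± 11013), RN7SK (21519 ± 525), RMRP (20969 ± 2232, overlapping RN7SK), the RPPH1 locus (9926 ± 728) and TERC (235 ± 11.02), all with SD and n = 3. For the merged loci this puts all reads of the locus on the RNA.

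The genes whose profiles over the 6 libraries were nearest to each RNA, by Euclidean distance of centred log2 values among 16671 tested genes whose mean reached 100 normalized counts, were mixed in kind. RN7SL1 and the RN7SL2 locus were each other's nearest, at a distance of 0.163, and both were next nearest to RPL21P53, a processed pseudogene of a ribosomal protein gene. The profiles of RN7SL1 and the RN7SL2 locus are not independent, since reads of either could be placed on the other. TERC was the second nearest to RMRP at 0.189, after the lncRNA ENSG00000288823 at 0.173. RN7SK was nearest to ZXDA, a zinc finger gene, at 0.0907, then to an unnamed locus on chromosome 1 at 0.119 and to the pseudogene RN7SKP9 at 0.125, on which RN7SK reads could be placed. The RPPH1 locus was nearest to SNRNP25 at 0.106 and TERC to ZNF550 at 0.0872.

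The protein partners of these RNAs were tested as genes, through their RNA. Their counts stand against 44.2% of all tested genes higher in chromatin and 45.0% higher in nucleoplasm under the authors' size factors. The shares were 54.2% and 34.0% under the same total, and 22.8% and 64.6% under the same ERCC total. Calls under the same ERCC total, here and below, overstate certainty, since error in a library's ERCC total moves all its genes together. Of the 7SK snRNP and P-TEFb, 7 of 7 genes were tested, of which 1 was higher in chromatin, 5 were higher in nucleoplasm and 1 was not called, with a median log2 fold change of -0.63. With libraries scaled to the same total, 3 were higher in chromatin and 4 in nucleoplasm, and under the same ERCC total none and 6. The cyclin gene CCNT2 was higher in chromatin (1.49), a call that was lost under the same ERCC total (0.17), and the genes of the inhibitor HEXIM2 (-1.15), of the 7SK capping enzyme MEPCE (-0.85) and of the 7SK-binding protein LARP7 (-0.63) were lower. HEXIM1 had a log2 fold change of 0.14 (adjusted p = 0.118, limma).

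Of the SRP proteins, 5 of 6 genes were tested and all 5 were higher in nucleoplasm, against 45.0% of all tested genes, with a median log2 fold change of -1.65 and 1 gene past the 4-fold minimum, against 8.60%. SRP14, of the Alu domain, had -2.34 and its partner SRP9 -1.65, SRP68 had -1.71 and SRP54, which binds the signal peptide, -1.36. All 5 kept this direction under the same total and under the same ERCC total.

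Of the proteins of RNase P and RNase MRP, 10 of 11 genes were tested, with 1 higher in chromatin, 8 higher in nucleoplasm and a median of -0.68, against 44.2% and 45.0% of all tested genes. POP7 (-1.87), RPP25L (-1.70) and RPP40 (-1.002) were higher in nucleoplasm, and RPP30 was higher in chromatin (0.93), with a value of -0.39 under the same ERCC total. Under the same total, 3 were higher in chromatin and 6 in nucleoplasm, and under the same ERCC total none and 9.

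Of the telomerase RNP, 8 of 9 genes were tested, with 3 higher in chromatin (none under the same ERCC total), 5 higher in nucleoplasm (6 under the same ERCC total) and a median of -0.80, against 44.2% and 45.0% of all tested genes. NHP2 (-2.67) and GAR1 (-1.86), H/ACA proteins that bind TERC, and WRAP53 (-1.08), which brings TERC to Cajal bodies, were higher in nucleoplasm. TERT, the catalytic subunit, was higher in chromatin under the authors' size factors (1.11) and not under the same ERCC total (-0.21). Levels of mRNA in a nuclear fraction are not levels of these proteins.

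**Figure D4:**
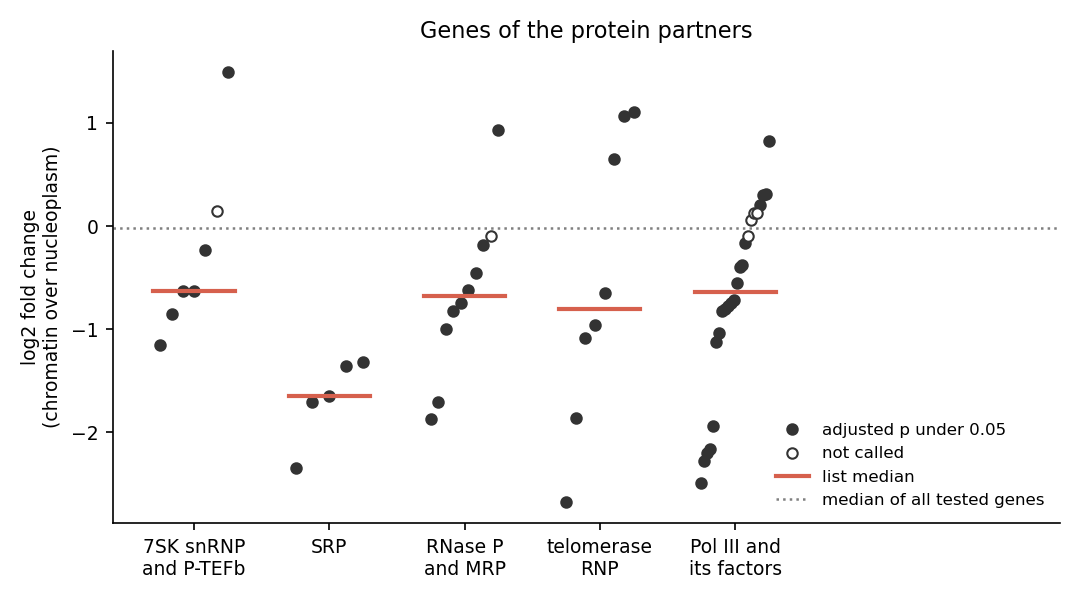
Log2 fold change of chromatin over nucleoplasm for the tested genes of 5 lists; each point is a gene, open where not called at an adjusted p under 0.05, with a line at each list's median and a dotted line at the median of all tested genes. The medians lie between -1.65 for the SRP proteins and -0.63 for the 7SK snRNP, and most points lie below 0 under the authors' size factors.

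Of 28 genes of Pol III and its factors, 24 were tested, with 4 higher in chromatin, 16 higher in nucleoplasm and a median of -0.63, against 44.2%, 45.0% and -0.01 over all tested genes. SNAPC2 (-2.49), GTF3C6 (-2.27), SSB (-2.19), which encodes the La protein that binds the U-rich end of Pol III transcripts, and POLR3K (-2.16) changed most and passed the 4-fold minimum. Under the same total, 9 of these genes were higher in chromatin and 12 in nucleoplasm, and under the same ERCC total all 24 were higher in nucleoplasm.

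Of 17 other Pol III transcripts, 14 were tested, with 1 higher in chromatin, 5 higher in nucleoplasm, 8 not called and a median of -0.93, against 44.2% and 45.0% of all tested genes. These counts turned to 6 and 3 under the same total and were none and 9 under the same ERCC total. Under the same total, RNU6-1, RNU6-2, RNU6-7, RNU6-8 and RNU6-9 had 1.14 to 1.31 and VTRNA1-3 had 1.49. All other values were negative. The named RNU6 genes are copies of the gene of U6 RNA, so their calls are not independent, and none was called under the authors' size factors. The Y RNAs RNY4 (-3.09, SE 0.59), RNY3 (-1.99, SE 0.64) and RNY1 (-1.52, SE 0.63, adjusted p = 0.0483, limma) were higher in nucleoplasm, and the vault RNA VTRNA1-1 had -1.46 (SE 0.62, adjusted p = 0.0527, limma). VTRNA1-3, another vault RNA, was the one called in chromatin (1.07, SE 0.31, adjusted p = 0.00992, limma), with -0.14 under the same ERCC total. The standard errors of the Y RNAs were several times those of the 6 RNAs. RNY1 had 1437 ± 1500 normalized counts in chromatin against 2898 ± 699 in nucleoplasm (SD, n = 3 per fraction). RNY3 had 387 ± 413 against 1068 ± 225, and RNY4 had 20.1 ± 21.6 against 129 ± 18.4. In chromatin the SD was thus above the mean for each, and the fractions of RNY1 and RNY3 overlapped, unlike those of the 6 RNAs. BCYRN1, the gene of the BC200 RNA, varied less, with 2139 ± 203 normalized counts in chromatin against 3958 ± 612 (SD, n = 3 per fraction) and a log2 fold change of -0.88 (SE 0.11). Of 14 Pol II snRNAs and the snoRNAs U3, U8 and U13, 9 were tested, with 3 higher in chromatin, none higher in nucleoplasm and a median of 0.35, against 44.2% and 45.0% of all tested genes. Under the same ERCC total 2 were higher in chromatin and 7 in nucleoplasm, with a median of -0.98. SNORD13 (3.86) and SNORD3A (2.89), the genes of U13 and U3, were higher in chromatin under both scalings. RNU5B-1 (0.71, SE 0.51) and RNU4-1 (-0.57, SE 0.44) were not called. Some of these RNAs also spread widely over the chromatin libraries, with 1566 ± 1240 normalized counts for SNORD13 and 38354 ± 33495 for RNU5B-1 (SD, n = 3). Of 14 scaRNAs, guide RNAs of Cajal bodies, 2 were tested, SCARNA6 (3.04, called in chromatin) and SCARNA1 (-0.29, not called).

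Genes beside or across these loci had far fewer reads. RPS29, a ribosomal protein gene, spans RN7SL1 on the other strand and averaged 3617 ± 306 normalized counts for chromatin and 13605 ± 270 for nucleoplasm (SD, n = 3 per fraction), a log2 fold change of -1.91. PARP2 overlaps the edge of the RPPH1 locus on the other strand and had -1.03. CCDC107, which starts 272 bases from RMRP on the other strand, averaged 218 ± 22.1 and 150 ± 14.4 normalized counts, and its log2 fold change was 0.53. GSTA4, 297 bases from RN7SK on the other strand, had -0.20, and NEMF, on the strand of RN7SL2 and 630 bases from its locus, had 0.68.

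In the long-read chromatin libraries the 6 RNAs had 4224 and 5736 TPM in sum, 0.422% and 0.574% of the total, counting transcripts on the strand of the RNA with a span index of at least 0.5. TPM is a level per length, the table itself holds no read counts, so no counting interval is given, and with 2 libraries no test was made. RN7SK led with 2553 and 3005 TPM, of which the transcript annotated as RN7SK held 2452 and 2866, rank 13 and rank 5 of all transcripts. RN7SL1 had 1123 and 1959 TPM and RN7SL2, here a transcript of its own, 91.3 and 255. RMRP had 415 and 400 TPM, TERC 40.8 and 114, and RPPH1 0.102 and 3.54, with the lncRNA transcript over it included. The libraries thus differed little for RMRP and RN7SK and most for RPPH1, and replicate 2 was the higher for every RNA but RMRP. The value of RPPH1 in replicate 1 is near the floor. Its transcripts ranked 95095 and 95156 there, with 97645 transcripts above 0, so its difference between the libraries is not a reliable measure.

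Some of these loci had a long-read transcript on the other strand. At RN7SK a transcript of 661 bases (chr6:52995612-52996272, minus strand) had 777 and 1030 TPM, 23.3% and 25.5% of the TPM on both strands, while the directional short reads had no locus on the other strand there. At RN7SL1 the transcripts across it on the other strand had 395 and 576 TPM, from 1 transcript that spans 34764 bases. That transcript is on the strand of RPS29 and has the same lower coordinate, chr14:49583577, as an annotated RPS29 transcript. Whether it comes from RPS29 was not tested. At RN7SL2 such transcripts had 2898 and 4570 TPM, most of it from a transcript that spans 48404 bases and another of 55492 bases. The table does not give exons, so it is unknown whether reads of these long transcripts lie in RN7SL1 or RN7SL2. RMRP, RPPH1 and TERC had none. Direct cDNA reads do not carry the strand, and whether strands had been assigned before this table was made is not stated.

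The platforms ordered the RNAs differently in the same fraction. Set against RN7SK per length, RMRP was at 119%, 110% and 106% in the 3 short-read chromatin libraries and at 16.3% and 13.3% in the long-read libraries. RPPH1 was at 10.7%, 12.6% and 13.8% in short reads and at 0.00400% and 0.118% in long reads, the first of these near the floor. A long-read transcript spanning 14857 bases that reaches over the locus on the same strand had a further 18.3 and 17.1 TPM. This transcript (chr14:20343048-20357904) also covers nearly all of PARP2 (chr14:20343582-20357905), which lies on the other strand. Which of the 2 genes its reads come from was not tested. RN7SL1 went the other way, at 13.1%, 12.1% and 13.6% in short reads and 43.99% and 65.2% in long reads. The RN7SL2 locus was at 21.9%, 19.8% and 21.7% in short reads, and the RN7SL2 transcript at 3.58% and 8.48% in long reads. All long-read transcripts over RN7SL2 on its strand summed to 656 and 1067 TPM, against 91.3 and 255 for this transcript. That sum includes a transcript spanning 59171 bases at 484 and 735 TPM. The direction for RN7SL2 thus depends on which transcripts are counted. TERC was at 1.23%, 1.27% and 1.23% in short reads and at 1.60% and 3.80% in long reads. Counted by the percentages above, the values of the platforms did not overlap for any of the 5. The tables were normalized apart, so no test was made across them, and tailing, library chemistry and assembly differ between the platforms and cannot be told apart.

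**Figure D5:**
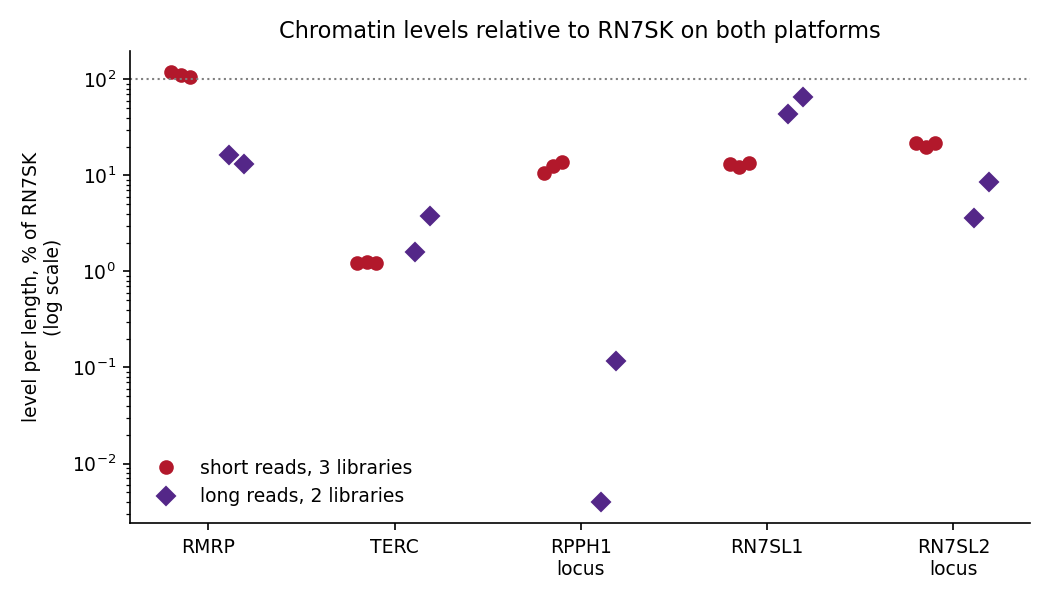
Level per length in chromatin as a percentage of RN7SK in the same library (log scale), for 3 short-read and 2 long-read libraries; the dotted line is the level of RN7SK. RMRP and RPPH1 are lower in long reads, and RN7SL1 and TERC are higher. For RN7SL2, the long-read points are the RN7SL2 transcript alone and lie below the short-read points, which are the merged locus.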

How the data were processed

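Short-read values: the authors aligned reads with HISAT2 2.1.0 to hg38 plus ERCC sequences, assembled each library with StringTie under GENCODE guidance, merged both fractions, and estimated gene counts again. The deposited signal is these counts divided by a DESeq2 size factor per library, unpooled. All nonzero values (100%) were whole multiples of 1 read at a tolerance of 0.01, so reads were recovered. They derive from coverage and stand as estimates. How multiply mapping reads were shared is not given in the sources used here. Long-read values: the deposited TPM per transcript came from minimap2 and StringTie in long-read mode.

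Groups came from titles. Genes of 10 or more normalized counts in 3 or more libraries entered a limma fit (limma 3.58.1, R 4.3.3) of log2 values with a pseudocount of 1, a trended variance and no covariates, adjusted by Benjamini-Hochberg. Folds on this scale understate changes of low genes. Calls of more than 4-fold are past 2 on the log2 scale. Names came from GENCODE release 44 (the authors used an earlier one) by same-strand span Jaccard index of at least 0.5. Lengths are from RefSeq. As alternatives, recovered reads were tested with DESeq2 1.42.0 and edgeR 4.0.16, and pseudocount, filter and scaling were changed, a replicate block was added, and each library was left out. In simulated counts for 26489 genes, 200 were changed by 3 on the log2 scale. At an adjusted p under 0.05, limma called 199 of them in the right direction and 18 unchanged genes. Past both thresholds it called 198 changed and 4 unchanged genes. Far fewer genes were changed there than were called in the data, so the simulation does not test the scaling. Named genes are the 6 RNAs, up to 4 genes of each list with the largest changes, overlapping or nearest genes, and nearest profiles. Genes outside that rule, chosen after their values were seen, are HEXIM1, VTRNA1-3 and BCYRN1. The 6 RNAs and all lists were chosen with earlier results of these data known. The cultures are separate, but the labels do not tie a chromatin library to a nucleoplasm library of the same culture. Replicate libraries differed beyond sampling noise (chi-square per gene 4.54 to 70.3). The sequences of RN7SL1 and RN7SL2 are not reported here.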

Additional observations from a re-analysis of the deposited data

How the results depend on the processing

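RN7SL1, the RN7SL2 locus and the RPPH1 locus kept their direction under all alternatives run. They kept an adjusted p under 0.05 under all but the same ERCC total, whose p-values are not used. RN7SK, RMRP and TERC kept both except under the same ERCC total, where their log2 fold changes turned to -0.71, -0.51 and -0.53. That alternative scales all genes and moved the median of all tested genes to -1.32. In its fit the SE was 0.20 for each of the 6, since error in a library's ERCC total moves all its genes together. The fit took this variance as known from all genes, so its p-values are too small and are not given. Leaving out each library gave 0.54 to 0.69 for RN7SK, 0.70 to 0.90 for RMRP, 0.73 to 0.86 for TERC, -1.38 to -1.23 for the RPPH1 locus, -4.94 to -4.73 for RN7SL1 and -5.02 to -4.80 for the RN7SL2 locus. The genes called past 4-fold were 5671 in chromatin and 2277 in nucleoplasm, so 71.4% of calls were in chromatin. The share was 86.8% under the same total (6830 and 1037 genes) and 25.6% under the same ERCC total (3119 and 9082). A mean of at least 50 normalized counts as filter left 2975 in chromatin, with fewer genes tested. Scaling to the same total without the 6 RNAs, a setting added after the data were seen, gave 1338 in nucleoplasm. edgeR called 5821 and 2232, DESeq2 5997 and 2030, and leaving out each library gave 5549 to 5708 and 2054 to 2438.

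The nucleoplasm minus chromatin difference in the summed share, 8.10 percentage points, was 8.89 without RN7SK and 9.66 with all RN7SL and RN7SKP loci, by construction, and 7.90 to 8.44 with each library left out, where the exact permutation test cannot go below 0.2. Libraries with the same replicate number correlated weakly in their deviations (0.0784, 0.0552 and 0.0610), though each correlated best with its own number. The replicate block left every call of the 6 RNAs in place and gave 5680 and 2285 genes. The summed TPM was 4224 and 5736 in the 2 long-read libraries. TERC, with 7629 to 11473 reads a library, had the least depth of the 6.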
